A study of Homo sapiens with 4 samples.

Results

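The DEAD and DEAH box helicases described here are the protein-coding genes whose symbol begins with DDX or DHX followed by a digit, without DDX39A and DDX39B and without symbols that hold a hyphen. The rule found 53 genes among 51699 gene identifiers, 37 with a DDX name and 16 with a DHX name, by symbol and biotype alone. Nuclear and cytoplasmic RNA of HEK293T cells, an established line derived from human embryonic kidney and expressing a viral T antigen, was sequenced. The data comprised 4 libraries, 2 biological replicates of the nuclear and 2 of the cytoplasmic fraction, all from wildtype cells that had been crosslinked with formaldehyde before the fractions were separated. The study used the fractions to ask in which compartment an RNA is found, and no group was treated otherwise. Each library was prepared from the same mass of RNA with a kit that removes ribosomal RNA. A value is therefore a share of the remaining RNA of its fraction and not an amount per cell. As in any bulk sample, fewer cells with an RNA and less of that RNA per cell cannot be told apart.

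DEAD and DEAH box proteins use ATP to open RNA duplexes or to strip proteins from RNA, and their names come from amino acids of a conserved motif that binds ATP. They act at nearly every stage of the life of an RNA. DEAH box members drive the rearrangements of the spliceosome, many DEAD box members work in the nucleolus on the precursors of the ribosome, and others act in export, translation, repression and decay of mRNA or in the sensing of viral RNA. The measurements below concern the RNAs that encode these proteins, not the place where the proteins work.

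The table of the series gives a mean normalized count per gene, and the whole counts of each library were recovered from it, with the help of the deposited fold change and its error, for 32349 of 32478 genes above 0 and for all 52 members above 0. On the genes recovered, the nuclear libraries held 23224357 and 20284858 counts and the cytoplasmic libraries 18638682 and 17062851 counts. With the 129 genes that were not resolved, among them 7SK and RN7SL1, the totals were estimated at 24496107, 21412689, 24157905 and 21946166. Values per library are given as counts divided by the size factor of the library. The deeper library of a fraction is always named before the shallower one, because the replicate number of each is not known. The nuclear RNAs MALAT1, NEAT1 and KCNQ1OT1 had log2 fold changes of cytoplasm over nucleus of -3.48, -3.08 and -4.23, and the mRNAs of GAPDH, ACTB and RPLP0 of 3.78, 2.68 and 3.78. The HEK293T markers PAX2, LHX1, NEFM and LIN28B were detected in all 4 libraries. PAX2 was the lowest, with 177 and 105 counts in the nuclear libraries and only 15 and 11 in the cytoplasmic libraries. In the same order, 5 markers of blood, liver, basal epithelial and endothelial cells summed to 23, 15, 5 and 6 counts.

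Helicase RNA was divided between both compartments, with more members higher in the cytoplasm. Of the 53 members, 50 had at least 10 counts over the 4 libraries and were tested, and 38 differed between the fractions in limma (adjusted p up to 0.01, the threshold used throughout). This share of 76.0% stood beside 73.5% of the protein-coding genes and 68.0% of all genes tested. In a fit limited to genes with a mean normalized count over 50, 38 of 46 members and 11472 of 13865 genes passed, which are nearly equal shares. In the cytoplasmic fraction 27 members were higher, where 39.9% of the protein-coding genes and 32.2% of all genes were. In the nuclear fraction 11 were higher, against 33.6% of the protein-coding genes and 35.8% of all genes. The other 12 did not pass. Among the calls, 14 cytoplasmic and 3 nuclear ones exceeded 1 on the log2 scale, where 27.6% and 23.1% of the protein-coding genes met the same criteria. In all 38 called members, and in 8 of the other 12, the nuclear and cytoplasmic libraries did not overlap, as in 89.8% of the protein-coding genes and 87.6% of all genes. The median log2 fold change was 0.50 over the 50 members and 0.11 over 15014 protein-coding genes. The direction of the median depended on the scale: with equal library totals in place of the size factors every log2 fold change was lower by 0.66, the median of the members was -0.17, and 16 members were higher in the cytoplasm and 21 in the nucleus, 9 of them members that had not passed and 1 of them DDX52, which changed sides. Over all genes the cytoplasmic share of the calls then fell from 47.4% to 28.8%.

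**Figure D1:**
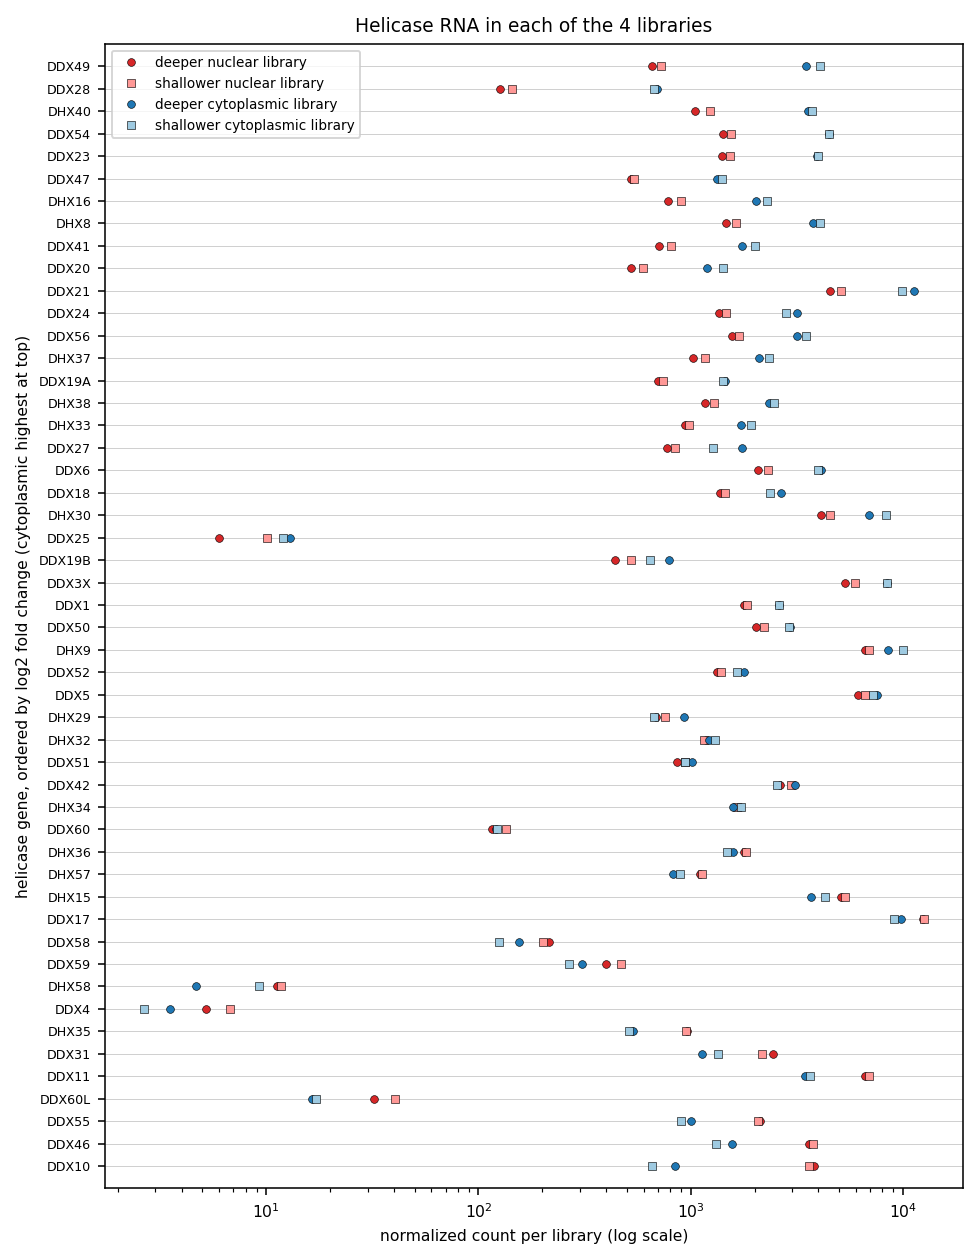
Normalized counts of the 50 tested helicases in each library (log scale), ordered by fold change with the most cytoplasmic at the top; circles and squares are the deeper and shallower library, red nuclear and blue cytoplasmic. The libraries of a fraction lie closer together than the fractions for most members, from DDX49 at 688 in the nucleus and 3789 in the cytoplasm to DDX10 at 3715 and 751.

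The 53 genes summed to 99787 and 105380.3 normalized counts in the nuclear libraries and to 132388 and 133651 in the cytoplasmic libraries. On this scale the summed level was higher in both cytoplasmic libraries. As a share of the estimated total counts of a library the order was the opposite. These shares were 0.546% and 0.585% in the nuclear libraries and 0.467% and 0.460% in the cytoplasmic libraries. On the recovered counts alone the fractions overlapped, at 0.576% and 0.618% in the nuclear libraries and 0.606% and 0.591% in the cytoplasmic libraries. Of the 50 members tested, 35 had a mean normalized count over 1000 and 4 had one of 50 or less. The libraries of the same fraction differed little for the 46 members above 50: the median absolute log2 ratio of deeper over shallower library was 0.12 in the nucleus and 0.13 in the cytoplasm. The widest spread was that of DHX29 in the cytoplasm, at 0.47 on the log2 scale.

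The helicases of pre-mRNA splicing fell on both sides. Of 9 listed and tested, 5 were higher in the cytoplasm, 3 were higher in the nucleus and 1 did not pass, with a median log2 fold change of 0.97. Beside these counts stand 39.9% of the protein-coding genes higher in the cytoplasm and 33.6% higher in the nucleus. The cytoplasmic group comprised DDX23, DHX16, DHX8, DDX41 and DHX38, and with equal library totals their log2 fold changes remained above 0, from 0.31 to 0.77. Positions are those of GENCODE 44 on hg38, the build the reads had been aligned to. DDX23, the counterpart of yeast Prp28 that helps the tri-snRNP join the spliceosome (chromosome 12, 48829756 to 48852842, minus strand), stood at 1404 and 1534 in the nuclear libraries and 3930.3 and 3994 in the cytoplasmic libraries, a 2.70-fold difference (log2 fold change 1.43, SE 0.10, adjusted p = 7.31e-14). DHX16 and DHX8 are the counterparts of Prp2, which activates the spliceosome, and of Prp22, which releases the finished mRNA. For DHX16 (chromosome 6, 30653119 to 30673006, minus strand) the values were 782 and 901 in the nuclear libraries and 2041 and 2286 in the cytoplasmic libraries (log2 fold change 1.36, SE 0.11, adjusted p = 1.11e-12). DHX8 (chromosome 17, 43483865 to 43610338, plus strand) gave 1462 and 1629 in the nuclear libraries and 3768 and 4084 in the cytoplasmic libraries (log2 fold change 1.35, SE 0.10, adjusted p = 4.84e-13). In each of these genes both cytoplasmic libraries were above both nuclear libraries. DDX41 and DHX38, the counterpart of Prp16, were 2.48-fold and 1.96-fold higher in the cytoplasm.

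On the nuclear side, DDX46 is the counterpart of Prp5, which acts when the branch site is first recognised. Its values (chromosome 5, 134758771 to 134855133, plus strand) were 3599 and 3754 in the nuclear libraries and 1562 and 1317 in the cytoplasmic libraries, 2.56-fold higher in the nucleus (log2 fold change -1.36, SE 0.11, adjusted p = 9.31e-13). DHX35, found in catalytic spliceosomes (chromosome 20, 38962299 to 39039723, plus strand), stood at 955 and 951 in the nuclear libraries and 535 and 512 in the cytoplasmic libraries (log2 fold change -0.86, SE 0.12, adjusted p = 8.09e-08). DHX15, the counterpart of Prp43 that takes the spliceosome apart (chromosome 4, 24517441 to 24584554, minus strand), differed less, with 5128 and 5347 in the nuclear libraries and 3675 and 4289.7 in the cytoplasmic libraries (log2 fold change -0.40, SE 0.11, adjusted p = 0.00115). The DHX15 call did not hold without the shallower nuclear library (adjusted p = 0.0117) or without the deeper cytoplasmic library (adjusted p = 0.0561). DDX42, which binds the SF3B complex, lay at 2633 and 2984 in the nuclear libraries and 3113 and 2540.4 in the cytoplasmic libraries, and here the fractions overlapped (log2 fold change 0.01, SE 0.11, adjusted p = 0.968; 95% confidence interval -0.22 to 0.23). Members that act at neighbouring steps of one pathway thus spanned log2 fold changes from -1.36 to 1.43.

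**Figure D2:**
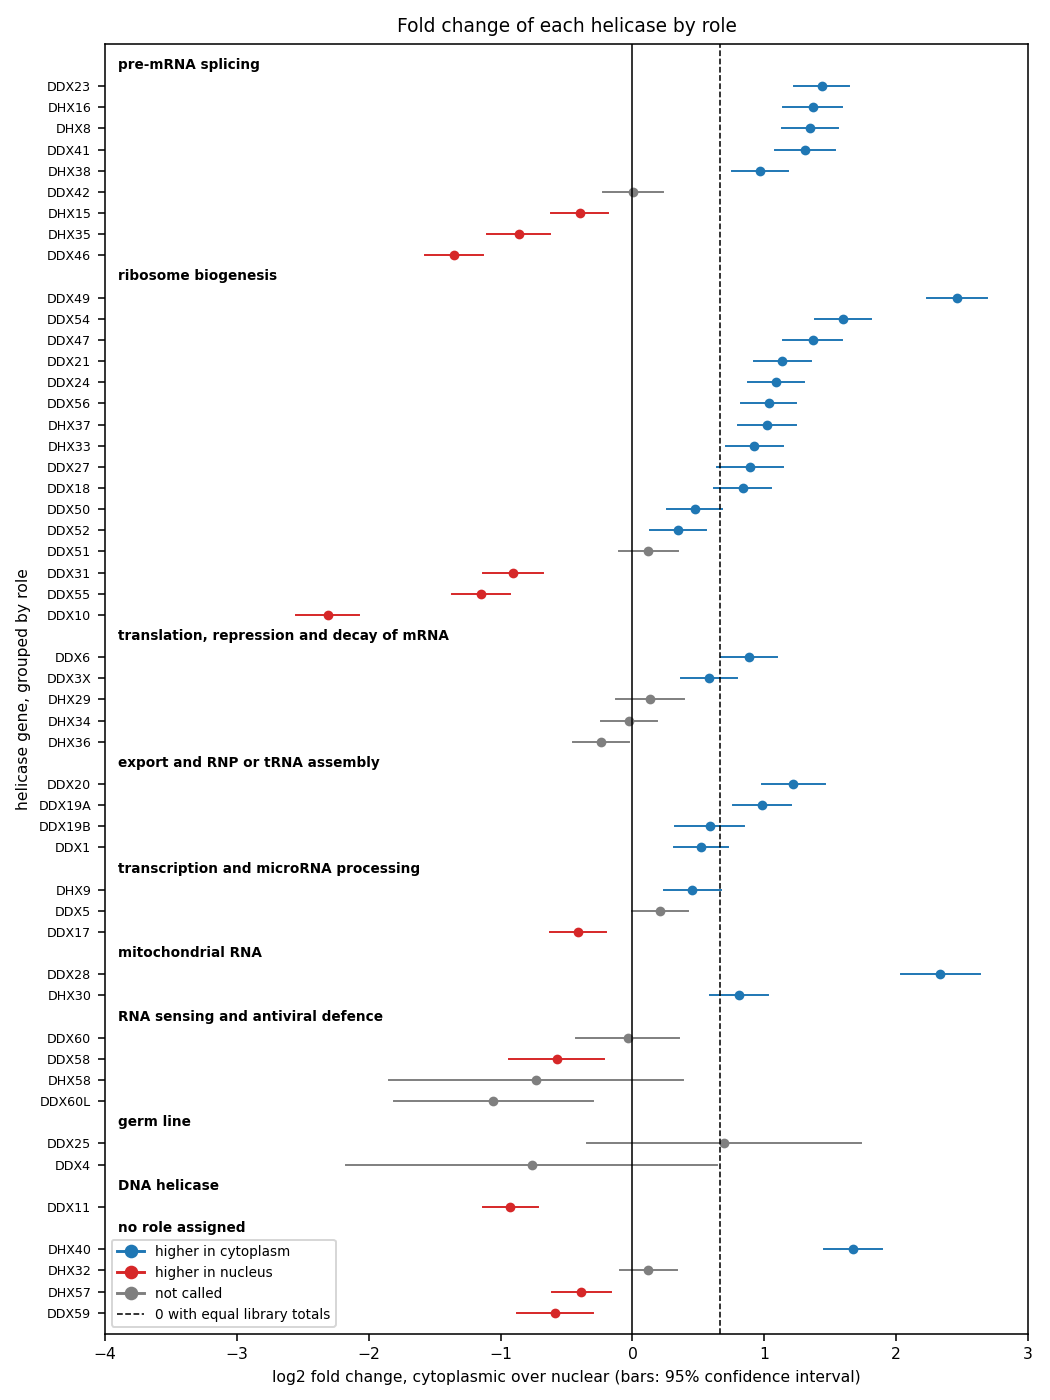
Log2 fold change of each tested helicase, cytoplasmic over nuclear, with its 95% confidence interval from limma, grouped by role; blue and red mark calls at an adjusted p of at most 0.01 and grey the rest, and the dashed line at 0.66 is where 0 would lie with equal library totals. Splicing helicases run from -1.36 to 1.43 and ribosome biogenesis helicases from -2.31 to 2.46, and DDX50, DDX52, DDX3X, DDX19B, DDX1 and DHX9 are called to the right of 0 but lie left of the dashed line.

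Ribosome biogenesis was the largest role, with 16 members that were all tested. In this list 12 were higher in the cytoplasm and 3 in the nucleus, where 39.9% and 33.6% of the protein-coding genes were. DDX51 did not pass (log2 fold change 0.12, SE 0.11, adjusted p = 0.323), and the median log2 fold change was 0.91. The list held both ends of the whole family. DDX49, needed for the small ribosomal subunit (chromosome 19, 18919705 to 18929189, plus strand), had the largest cytoplasmic fold change of all 50 members, with 656 and 721 in the nuclear libraries and 3500.0 and 4078 in the cytoplasmic libraries. This was a 5.50-fold difference (log2 fold change 2.46, SE 0.11, adjusted p = 7.88e-19), from 688 ± 46.7 in the nucleus and 3789 ± 408 in the cytoplasm (SD, n = 2). DDX10, a nucleolar helicase of the small-subunit processome (chromosome 11, 108665058 to 108940999, plus strand), had the largest nuclear one, at 3804 and 3626 in the nuclear libraries and 844 and 659 in the cytoplasmic libraries. It was 4.96-fold higher in the nucleus (log2 fold change -2.31, SE 0.12, adjusted p = 1.64e-17), from 3715 ± 126 in the nucleus and 751 ± 131 in the cytoplasm (SD, n = 2).

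Among the other cytoplasmic calls, DDX54, a nucleolar helicase (chromosome 12, 113157173 to 113185479, minus strand), stood at 1424 and 1549.8 in the nuclear libraries and 4480.2 and 4502 in the cytoplasmic libraries (log2 fold change 1.60, SE 0.10, adjusted p = 5.07e-15). DDX47, a small-subunit factor (chromosome 12, 12813316 to 12829981, plus strand), stood at 522 and 542 in the nuclear libraries and 1333 and 1410.0 in the cytoplasmic libraries (log2 fold change 1.37, SE 0.11, adjusted p = 1.45e-12). For both genes the 2 cytoplasmic libraries were close to each other and far above the nuclear ones. DDX21, which links transcription by RNA polymerase I to rRNA processing (chromosome 10, 68956135 to 68985068, plus strand), was among the most abundant members with 4524 and 5104 in the nuclear libraries and 11285 and 9903 in the cytoplasmic libraries (log2 fold change 1.14, SE 0.11, adjusted p = 4.15e-11). DDX24, DDX56, DHX37, DHX33, DDX27 and DDX18 had log2 fold changes from 0.83 to 1.09. Of these, DHX37 is known for releasing a snoRNA from the maturing small subunit. DDX27 had cytoplasmic libraries far apart, at 1745 and 1275, both above its nuclear values of 772 and 843. With equal library totals DHX33, DDX27 and DDX18 no longer passed (adjusted p = 0.0275, 0.0883 and 0.133).

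DDX50 and DDX52 were the weakest cytoplasmic calls of this list. For DDX52, at 1324 and 1385 in the nuclear libraries and 1783 and 1653 in the cytoplasmic libraries (log2 fold change 0.34, SE 0.10, adjusted p = 0.00394), leaving out the deeper nuclear, the shallower nuclear or the deeper cytoplasmic library ended the call (adjusted p = 0.037, 0.0101 and 0.0649). With equal library totals DDX52 was higher in the nucleus (log2 fold change -0.32, adjusted p = 0.00667). The nuclear side held 2 more members beside DDX10, both linked to the large subunit through their yeast counterparts. DDX55 (chromosome 12, 123602077 to 123620943, plus strand) stood at 2132 and 2084 in the nuclear libraries and 1000.2 and 899.8 in the cytoplasmic libraries, 2.22-fold higher in the nucleus (log2 fold change -1.15, SE 0.11, adjusted p = 4.47e-11). DDX31 (chromosome 9, 132592997 to 132670401, minus strand) stood at 2439 and 2169 in the nuclear libraries and 1128 and 1342 in the cytoplasmic libraries (log2 fold change -0.90, SE 0.11, adjusted p = 1.32e-08). For both genes each nuclear library was above each cytoplasmic library by a wide margin.

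In the list of translation, repression and decay of mRNA, 2 of 5 tested members were higher in the cytoplasm and the others did not pass. Among the protein-coding genes 39.9% were higher in the cytoplasm. DDX6, which represses translation and promotes decapping (chromosome 11, 118747763 to 118791164, minus strand), stood at 2079 and 2322 in the nuclear libraries and 4121 and 3974 in the cytoplasmic libraries (log2 fold change 0.88, SE 0.10, adjusted p = 4.99e-09). DDX3X, which helps ribosomes through structured leaders (chromosome X, 41333348 to 41364472, plus strand), stood at 5317 and 5960.3 in the nuclear libraries and 8421 and 8432 in the cytoplasmic libraries (log2 fold change 0.58, SE 0.10, adjusted p = 8.94e-06). The cytoplasmic libraries of DDX3X were almost equal and above both nuclear ones. Neither passed with equal library totals, where DDX6 was at 0.22 (adjusted p = 0.0541) and DDX3X changed sign to -0.08 (adjusted p = 0.482). DHX36, which opens G-quadruplexes, had the lowest fold change of this list, with 1782 and 1826 in the nuclear libraries and 1588 and 1475 in the cytoplasmic libraries, and missed the threshold although its fractions did not overlap (log2 fold change -0.24, SE 0.10, adjusted p = 0.04). DHX34, a factor of nonsense-mediated decay, did not pass, at -0.03 (95% confidence interval -0.24 to 0.19). DHX29, which assists scanning, was at 0.13 (-0.13 to 0.39), with cytoplasmic libraries at 926 and 669 on either side of the nuclear ones. DDX3Y had 2 counts, both in the deeper nuclear library, and was not tested.

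All 4 members of the list of export and RNP or tRNA assembly were higher in the cytoplasm, as were 39.9% of the protein-coding genes. With equal library totals, however, DDX19B and DDX1 changed sign (log2 fold change -0.08 and -0.14, adjusted p = 0.58 and 0.201). A count over 4 genes describes these members only. DDX20, the gemin of the SMN complex that loads Sm proteins on snRNAs (chromosome 1, 111754832 to 111775602, plus strand), led with 522 and 595 in the nuclear libraries and 1192 and 1413 in the cytoplasmic libraries (log2 fold change 1.22, SE 0.12, adjusted p = 6.77e-11). DDX1, a subunit of the tRNA ligase complex (chromosome 2, 15591178 to 15634346, plus strand), had the smallest fold change, with 1791 and 1839 in the nuclear libraries and 2601 and 2604 in the cytoplasmic libraries (log2 fold change 0.52, SE 0.10, adjusted p = 3.38e-05). The nuclear and the cytoplasmic libraries of DDX1 each differed by little among themselves. DDX19A and DDX19B act at the cytoplasmic face of the nuclear pore, where they release export factors from mRNA, and are neighbours on chromosome 16. DDX19A (chromosome 16, 70346861 to 70373383, plus strand) stood at 705 and 743 in the nuclear libraries and 1443 and 1414 in the cytoplasmic libraries (log2 fold change 0.98, SE 0.11, adjusted p = 1.2e-09). DDX19B (chromosome 16, 70289663 to 70335305, plus strand) stood at 439 and 521 in the nuclear libraries and 791 and 643 in the cytoplasmic libraries (log2 fold change 0.58, SE 0.13, adjusted p = 0.000144). The DDX19B call was lost without the deeper cytoplasmic library (adjusted p = 0.0171). How reads that fit both of these similar genes were counted was not examined, so the division between them is uncertain.

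Of the 3 members that act in transcription and microRNA processing, DHX9 was higher in the cytoplasm, DDX17 was higher in the nucleus and DDX5 did not pass. The protein-coding shares were 39.9% for the cytoplasm and 33.6% for the nucleus. DHX9, which resolves RNA:DNA hybrids and long duplexes (chromosome 1, 182839347 to 182887982, plus strand), stood at 6598 and 6909 in the nuclear libraries and 8536 and 10008 in the cytoplasmic libraries (log2 fold change 0.45, SE 0.11, adjusted p = 0.000329). Without the shallower cytoplasmic library DHX9 did not pass (adjusted p = 0.0222), and on the scale of equal totals its sign turned, to -0.21 (adjusted p = 0.0729). DDX17 and DDX5 are close paralogues, both partners of Drosha and of transcription factors. DDX17 (chromosome 22, 38483438 to 38507660, minus strand) had the highest mean normalized count of all members, with 12469 and 12592 in the nuclear libraries and 9781 and 9034 in the cytoplasmic libraries (log2 fold change -0.41, SE 0.10, adjusted p = 0.000664). It too fell short without the shallower cytoplasmic library (adjusted p = 0.0164). DDX5 (chromosome 17, 64498254 to 64508199, minus strand) stood at 6119 and 6612 in the nuclear libraries and 7525 and 7188 in the cytoplasmic libraries (log2 fold change 0.21, SE 0.10, adjusted p = 0.065), with fractions that did not overlap.

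The paralogues could be compared within each library, where the scale of the fractions cancels. The ratio of normalized counts of DDX5 to DDX17, not corrected for length, was 0.491 and 0.525 in the nuclear libraries and 0.769 and 0.796 in the cytoplasmic libraries. That of DDX21 to DDX50, a nucleolar pair with 9.29 kb between the genes on chromosome 10, was 2.24 and 2.31 in the nuclear libraries and 3.83 and 3.39 in the cytoplasmic libraries. DDX50 (chromosome 10, 68901286 to 68946847, plus strand) itself stood at 2021 and 2212 in the nuclear libraries and 2948 and 2918 in the cytoplasmic libraries (log2 fold change 0.47, SE 0.10, adjusted p = 0.000136), and with equal library totals its log2 fold change was -0.19 (adjusted p = 0.0909). For DDX19A over DDX19B, 11.6 kb apart, the ratios were 1.60 and 1.43 in the nuclear libraries and 1.82 and 2.20 in the cytoplasmic libraries. Those of DDX60 over DDX60L, 37.9 kb apart on chromosome 4, were 3.60 and 3.35 in the nuclear libraries and 7.36 and 7.08 in the cytoplasmic libraries. In each of these 4 pairs the nuclear and cytoplasmic ratios did not overlap. That the cytoplasmic ratios were the higher ones depends on which gene of a pair is named first. No share over other pairs of genes is given, and for single genes the fractions did not overlap in 87.6% of all genes. An exact permutation test of 2 against 2 libraries cannot give a two-sided p below 0.333, and the ratios were tested in no other way.

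**Figure D3:**
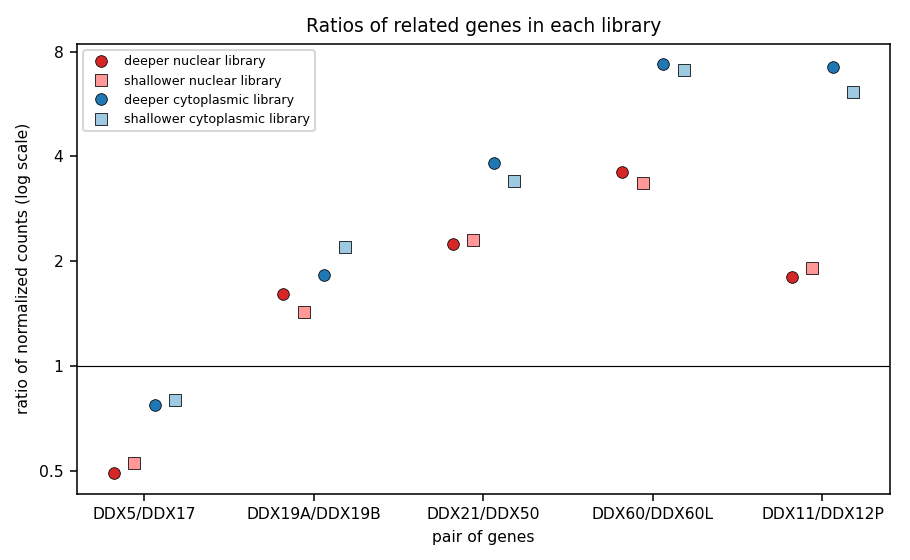
Ratio of normalized counts, first gene over second, in each library (log scale) for 4 paralogue pairs and for DDX11 over its pseudogene copy DDX12P; red nuclear, blue cytoplasmic, circles the deeper and squares the shallower library. In all 5 pairs the cytoplasmic and nuclear ratios do not overlap, from 0.769 and 0.796 against 0.491 and 0.525 for DDX5 over DDX17 to 7.23 and 6.13 against 1.80 and 1.91 for DDX11 over DDX12P. The direction depends on which gene is named first.

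Both helicases of mitochondrial RNA were higher in the cytoplasm, as were 39.9% of the protein-coding genes. DDX28, a factor of mitochondrial ribosome assembly, is encoded by a single exon with no annotated intron (chromosome 16, 68020916 to 68023232, minus strand). It stood at 127 and 144 in the nuclear libraries and 691 and 671 in the cytoplasmic libraries, a 5.04-fold difference (log2 fold change 2.33, SE 0.15, adjusted p = 2.78e-15). DHX30, which binds mitochondrial transcripts and also has a cytoplasmic form (chromosome 3, 47802909 to 47850195, plus strand), stood at 4129 and 4524 in the nuclear libraries and 6907 and 8301 in the cytoplasmic libraries (log2 fold change 0.81, SE 0.11, adjusted p = 6.68e-08). With equal library totals DDX28 still passed (log2 fold change 1.67) and DHX30 did not (log2 fold change 0.15, adjusted p = 0.215).

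The RNA sensors and antiviral members were among the least abundant, and 1 of 4 passed, where 73.5% of the protein-coding genes did. DDX58, also named RIGI, detects viral RNA ends (chromosome 9, 32455302 to 32526208, minus strand) and stood at 216 and 201 in the nuclear libraries and 155 and 125 in the cytoplasmic libraries (log2 fold change -0.58, SE 0.18, adjusted p = 0.00406). The DDX58 call was lost without the deeper nuclear library (adjusted p = 0.028) and without the shallower cytoplasmic library (adjusted p = 0.077). DHX58, its regulator LGP2, had 15, 14, 4 and 7 counts (log2 fold change -0.73, SE 0.55, adjusted p = 0.222). DDX60 (chromosome 4, 168216291 to 168318883, minus strand), an antiviral factor, lay at 116 and 135 in the nuclear libraries and 121 and 122 in the cytoplasmic libraries, with fractions that overlapped (log2 fold change -0.04, SE 0.19, adjusted p = 0.867). DDX60L (chromosome 4, 168356735 to 168537786, minus strand) lay at 32.1 and 40.4 in the nuclear libraries and 16.4 and 17.2 in the cytoplasmic libraries, and its nuclear excess narrowly missed the threshold (log2 fold change -1.05, SE 0.37, adjusted p = 0.0113). Without the deeper nuclear library DDX60L passed (adjusted p = 0.00941).

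The germ line helicases were near the limit of detection in this kidney line. DDX4, the vasa protein of germ cells, had 7 and 8 counts in the nuclear and 3 and 2 in the cytoplasmic libraries (log2 fold change -0.76, SE 0.69, adjusted p = 0.315). DDX25, a testis helicase, had 8 and 12 in the nuclear and 11 and 9 in the cytoplasmic libraries (log2 fold change 0.70, SE 0.51, adjusted p = 0.213). At this depth no difference was detectable for either gene. DDX43 had 3 and 1 counts in the cytoplasmic libraries and none in the nuclear ones. DDX53 had no count in any library, which allows at most 3 counts in each.

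DDX11, a DNA helicase of sister chromatid cohesion (chromosome 12, 31073860 to 31104799, plus strand), was 1.90-fold higher in the nucleus, with 6598 and 6890.3 in the nuclear libraries and 3459 and 3628 in the cytoplasmic libraries (log2 fold change -0.93, SE 0.10, adjusted p = 1.33e-09). DDX11 has a near-identical pseudogene copy, DDX12P, which stood at 3675 and 3611 in the nuclear libraries and 478 and 592 in the cytoplasmic libraries and was 6.86-fold higher in the nucleus (log2 fold change -2.78, SE 0.12, adjusted p = 2.81e-19). The ratio of DDX11 to DDX12P was 1.80 and 1.91 in the nuclear libraries and 7.23 and 6.13 in the cytoplasmic libraries. Summed over both genes the nuclear libraries held 10273 and 10501 and the cytoplasmic libraries 3937 and 4221, so the sum of both copies was also higher in both nuclear libraries. How reads that fit both copies were counted was not examined. The values of each copy, their ratio and their sum are uncertain to that extent. Processed pseudogenes of other members, such as those of DHX9, DDX55 and DDX18, held at most 5 counts each over the 4 libraries.

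Of the 4 members with no role assigned, DHX40 (chromosome 17, 59565558 to 59608345, plus strand) had the third largest cytoplasmic fold change of the family, with 1053 and 1237 in the nuclear libraries and 3562 and 3708 in the cytoplasmic libraries (log2 fold change 1.67, SE 0.11, adjusted p = 4.15e-15). Its transcribed pseudogene DHX40P1 stood at 59.7 and 70.6 in the nuclear libraries and 55.1 and 54.3 in the cytoplasmic libraries and did not pass (log2 fold change -0.23, SE 0.25, adjusted p = 0.4). DDX59 (chromosome 1, 200623896 to 200669907, minus strand) was higher in the nucleus, with 399.7 and 470.1 in the nuclear libraries and 307 and 268 in the cytoplasmic libraries (log2 fold change -0.59, SE 0.14, adjusted p = 0.000473), but not without the shallower nuclear (adjusted p = 0.0106) or the shallower cytoplasmic library (adjusted p = 0.0136). DHX57, at 1110.4 and 1131 in the nuclear libraries and 824 and 891 in the cytoplasmic libraries, was also higher in the nucleus (log2 fold change -0.39, SE 0.11, adjusted p = 0.00215), but not without the shallower nuclear (adjusted p = 0.013) or the deeper cytoplasmic library (adjusted p = 0.0472). DHX32 did not pass (log2 fold change 0.12, SE 0.11, adjusted p = 0.299).

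Because reads in introns were counted, the structure of each gene was set beside its fold change. All 53 members matched a gene in GENCODE 44, and the median span of the tested members was 37.0 kb, beside 35.3 kb for protein-coding genes. Across the 50 tested members, longer genes had lower cytoplasmic over nuclear fold changes, with a Spearman correlation of -0.54 for the total span. The same correlation was -0.61 across 15007 protein-coding genes. With mean normalized counts over 50 only, it was -0.56 across 46 members and -0.71 across 12116 protein-coding genes. Genes are not independent replicates, and these values describe the libraries without a test. For all 50 tested members the correlation was -0.52 with intron length, -0.24 with exonic length and -0.28 with the number of introns of the canonical transcript.

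Among the 12 members with the shortest span, from 2.32 to 19.9 kb, 8 were higher in the cytoplasm and 1 in the nucleus, with a median log2 fold change of 1.00. Of the 12 longest, from 60.1 to 276 kb, 1 was higher in the cytoplasm and 7 were higher in the nucleus, with a median of -0.67. The 26 between them had 18 cytoplasmic and 3 nuclear calls. Over protein-coding genes of any span, 39.9% were higher in the cytoplasm and 33.6% in the nucleus. Counts by span are not given for those genes, whose fold changes also fell with span, so the split is not particular to helicases. DDX10, the most nuclear member, is also the longest, at 276 kb with an intron of 115 kb. The single cytoplasmic call among the long genes was DHX8, whose annotated span of 126 kb exceeds the 41.7 kb of its canonical transcript. With canonical transcripts in place of the whole span the correlation was also -0.54. DDX55 departed from the trend at the other end, being nuclear with a span of 18.9 kb. DDX5, at 9.95 kb, DDX51 and DHX58 were short and not called.

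**Figure D4:**
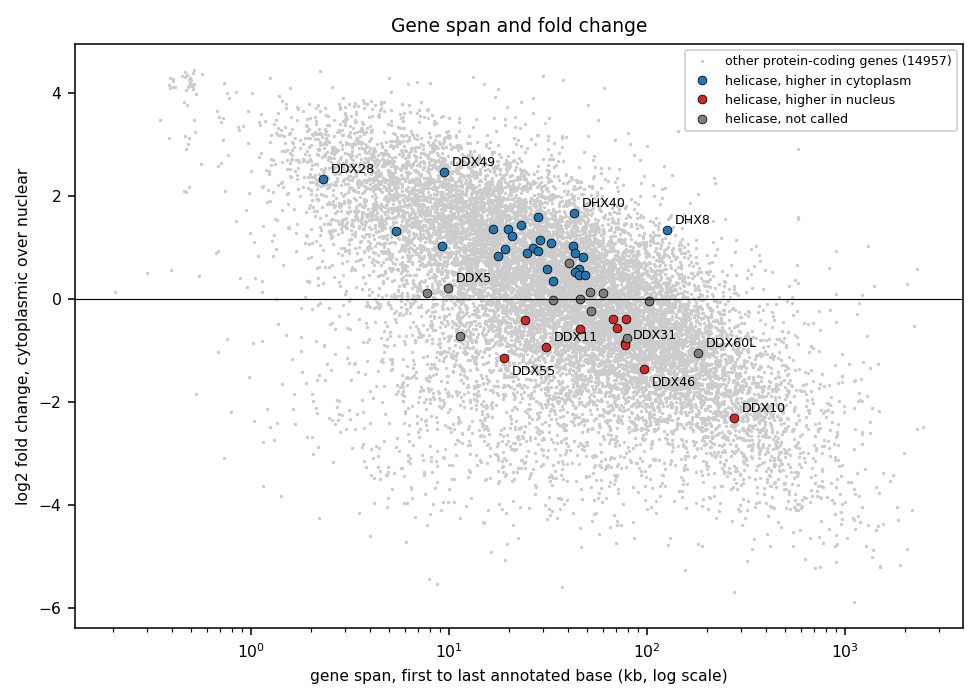
Log2 fold change, cytoplasmic over nuclear, against the span of the gene in kb (log scale) for the 50 tested helicases, coloured by call, over all other tested protein-coding genes in grey. DDX28 and DDX49 lie at the short, cytoplasmic end (2.33 and 2.46) and DDX10 at the long, nuclear end (-2.31), while DDX55 is short and nuclear (-1.15).

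The DDX and DHX names were compared by their counts alone. Of 34 tested DDX members, 19 were higher in the cytoplasm and 8 in the nucleus, with a median log2 fold change of 0.55. Of 16 DHX members, 8 were higher in the cytoplasm and 3 in the nucleus, with a median of 0.29. The difference between them was not tested. Among the 14 members with the highest mean normalized counts, 8 were higher in the cytoplasm and 4 in the nucleus, and DDX5 and DDX42 did not pass. The shares over protein-coding genes of any abundance were 39.9% and 33.6%.

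A list of 20 RNA helicases and related ATPases outside the rule had 7 higher in the cytoplasm, 6 higher in the nucleus and 7 that did not pass, with a median log2 fold change of 0.02. This was 65.0% called, where protein-coding genes gave 73.5% and all genes 68.0%. By direction, 39.9% of the protein-coding genes were higher in the cytoplasm and 33.6% in the nucleus. The EIF4A paralogues had different values. EIF4A1, the helicase of the initiation complex that binds the cap, stood at 4994 and 6016 in the nuclear libraries and 36138 and 40074 in the cytoplasmic libraries (log2 fold change 2.80, SE 0.11, adjusted p = 4.39e-20). EIF4A3, a core protein of the exon junction complex, stood at 620.5 and 709.7 in the nuclear libraries and 2432 and 2648 in the cytoplasmic libraries (log2 fold change 1.94, SE 0.11, adjusted p = 2.28e-16). In contrast EIF4A2 lay at 2529.5 and 2732 in the nuclear libraries and 2579.5 and 2884 in the cytoplasmic libraries, with overlapping fractions (log2 fold change 0.05, SE 0.10, adjusted p = 0.652). SNRNP200, which unwinds paired snRNAs in the spliceosome, was at 1.25, beside DDX23 at 1.43. ASCC3, YTHDC2 and HELZ were higher in the nucleus, at -1.07, -0.93 and -0.70. UPF1, the helicase of nonsense-mediated decay, was at 0.52 and MTREX, the helicase of the nuclear exosome, at -0.03, which did not pass.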

How the data were processed

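The 4 libraries of the fractionation (2 nuclear, 2 cytoplasmic) were compared. The authors aligned reads to hg38 with STAR, counted them over exons and introns with featureCounts 2.0.2 on an extended GENCODE v34 annotation without overlapping stretches or readthrough transcripts, and compared the fractions with DESeq2; whether counting used strand is not given in the sources used here. The deposited table holds a signal per gene, the authors' mean of the normalized counts over all libraries, and their log2 fold change of cytoplasm over nucleus with its standard error on the log2 scale. Their score, p-value and adjusted p-value columns were not used, and no fold change of theirs is printed.

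Per-library counts were recovered as the whole numbers whose weighted sum gives the deposited mean and whose negative binomial fit gives the deposited fold change and error to 1.5e-09. The authors' fold change thus served to find the counts. It also divided the means of the 129 unresolved genes, 15.8% of the summed mean, between the fractions for the estimated library totals. The setting of equal library totals, with its shift of 0.66, rests on those estimated totals. A single solution was found for 32349 genes (99.6%). None was found for 109, several for 10, and 10 were not searched. Size factors recomputed from 20922 genes differed from those of the table by at most 0.151%.

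The test set out for this comparison was edgeR on counts or, failing those, the authors' own result. The table itself lists no counts, so edgeR was not run, and the authors' result was not taken over. The test used instead was chosen after the table was seen: limma 3.58.1 (voom with an added count of 0.5, R 4.3.3) with the authors' size factors, genes of at least 10 counts in all (22133), and Benjamini-Hochberg adjustment over them. Both steps were tested on made-up counts with known answers. The limma fit was tested before its use on the recovered counts. The recovery was tested only after it had been run, on counts made from genes with a single solution. Bounds at 0 counts used 3 counts and cover counting error only.

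Gene structure came from GENCODE 44 on hg38, matched by identifier without version (99.95% of protein-coding genes tested). Members and lists were chosen with earlier results of these data known. By the rule for named genes, full values were given for the 8 called members with the largest fold change each way, the 14 with the highest mean normalized count, paralogue pairs and the first and last of each role.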

Additional observations from a re-analysis of the deposited data

How the results depend on the processing

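Equal library totals, estimated with the unresolved genes included, changed most. The cytoplasmic calls went from 27 to 16 and the nuclear calls from 11 to 21, and the median log2 fold change of the members from 0.50 to -0.17. The medians by role became 0.31 for splicing, 0.24 for ribosome biogenesis, -0.53 for translation and decay, 0.12 for export and assembly, -0.45 for transcription and microRNA processing, 0.91 for mitochondrial RNA, -1.32 for RNA sensing and -0.70 for the germ line. Called members that changed sign were DDX19B (-0.0785), DDX3X (-0.0806), DDX1 (-0.14), DDX50 (-0.19), DHX9 (-0.21) and DDX52 (-0.32), and of those not called DDX5 (-0.45), DHX29 (-0.53), DHX32 (-0.54), DDX51 (-0.54) and DDX42 (-0.657). These shifts follow from the setting, which lowers every log2 value by 0.66. Centring on the protein-coding median gave a median of 0.38 over the members, and 0.86, 0.79, 0.67, 0.10 and 1.46 for splicing, ribosome biogenesis, export, transcription and mitochondrial RNA. DDX42, near 0, was at -0.107 when centred and at -0.000976 with TMM. Bonferroni adjustment left 6 nuclear calls. With means over 50 only, the RNA sensing median was -0.31, over fewer genes. The correlation of fold change with length was -0.24 for exonic and -0.52 for intron length, against -0.54 for total span.

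Leaving out each library gave 34 to 37 calls, of which 34 to 36 were among the 38, with 25 to 26 cytoplasmic and 8 to 11 nuclear; the lone library of a fraction was then assumed to vary like the others. The median of the members ranged from 0.41 to 0.54, and by role from 0.90 to 1.04 for splicing, 0.86 to 0.95 for ribosome biogenesis, 0.0367 to 0.36 for translation and decay, 0.72 to 0.86 for export, 0.15 to 0.27 for transcription, 1.49 to 1.65 for mitochondrial RNA, -0.76 to -0.50 for RNA sensing and -0.32 to 0.22 for the germ line. Among uncalled members the sign turned for DHX29, DHX34, DDX60 and DDX42, whose log2 fold changes ranged from -0.106 to 0.362, -0.0899 to 0.0367, -0.155 to 0.0725 and -0.142 to 0.151. Of 50 members, 22 kept their direction and side of the threshold in all 15 alternatives, and 3 more did so in all but the one limited to means over 50, where they were not tested. Calls of the TMM, limma-trend and recomputed size factor fits (the last 2 chosen after seeing the data) numbered 38 each. Without a filter on low counts 37 members passed the threshold. The replicate number of each recovered library is not known, so the replicate block was fitted for both possible pairings, chosen after seeing the data. Pairing deeper with deeper libraries gave 32 calls, 25 cytoplasmic and 7 nuclear, without DDX19B, DDX52, DHX57, DHX15, DDX58 and DDX59. Pairing deeper with shallower libraries gave 39 calls, all 38 and DDX60L. Which pairing is right was not tested. The edgeR alternative was not run. Depth limited the 4 tested members with a mean of 50 or less, whose standard errors ran from 0.37 to 0.69 on the log2 scale.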

Other observations

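Non-coding genes beside the helicases were measured in the same libraries and belong to no comparison above. DDX19A-DT, divergent to DDX19A, stood at 515 and 588 in the nuclear libraries and 144 and 134 in the cytoplasmic libraries and was 3.93-fold higher in the nucleus (log2 fold change -1.98, SE 0.16, adjusted p = 1.97e-12), whereas DDX19A was at 0.98. DDX11-AS1, antisense to DDX11, stood at 329 and 229.6 in the nuclear libraries and 80.9 and 50.4 in the cytoplasmic libraries (log2 fold change -2.09, SE 0.24, adjusted p = 3.59e-09). Stretches shared by both genes had been removed from the annotation used for counting. DDX59-AS1 had 31.3 and 21.0 in the nuclear libraries and 16.4 and 18.6 in the cytoplasmic libraries and did not pass (log2 fold change -0.55, SE 0.39, adjusted p = 0.199). DHX35-DT and DDX39B-AS1 went the other way and did not pass. DHX35-DT had 2.24 and 3.36 in the nuclear libraries and 4.69 and 6.63 in the cytoplasmic libraries (log2 fold change 0.98, SE 0.70, adjusted p = 0.2). DDX39B-AS1, named after a helicase outside the rule, had 4.47 and 3.36 in the nuclear libraries and 9.38 and 18.6 in the cytoplasmic libraries (log2 fold change 1.66, SE 0.59, adjusted p = 0.0122). These genes were chosen by their names, after their values were seen.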
